A study of Mus musculus with 20 samples.

Results

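The step from 12 to 24 hours after induction was described in 3T3-L1 cells. This fibroblast line from the mouse turns into fat-storing adipocytes after a hormone mixture is given to confluent cultures. The samples were chosen by their labels: cells collected 12 hours and cells collected 24 hours after induction with the MDI protocol, each measured on array A and on array B, which makes 4 of the 20 samples of the series. The series followed preconfluent and confluent cells, then 6, 12 and 24 hours and days 2, 3, 4, 7 and 28 after induction, with 1 sample per time and array type. The labels give no genotype, agent or manipulation beyond the induction, and MDI in standard use stands for isobutylmethylxanthine, dexamethasone and insulin. The cells at 12 and at 24 hours shared that induction, and uninduced cells of the same ages were not part of the comparison. The line is clonal in origin, so the samples stand for a culture and not for fat tissue. With no replicate on either side there was no test, no standard error and no p-value. A probe set was called higher or lower when its values differed at least 2-fold and the brighter value lay above 500. Values below 136 on array A or 156 on array B, the floor, were set to the floor before log2 was taken.

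Confluent 3T3-L1 cells have left the cell cycle, and induction brings them back into it in near synchrony for a short period of division known as mitotic clonal expansion. In such a cycle the genes for replication origins and DNA precursors are switched on first, and the genes for mitotic cyclins, spindle motors and cytokinesis later, shortly before the cells divide. Adipocyte genes follow under the transcription factors C/EBP and PPAR gamma, while actin stress fibres and fibroblast matrix are taken down.

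Between 12 and 24 hours the genes of mitosis were higher together. Over 5 lists covering cyclins and kinases, kinetochore, chromosome structure, spindle and cytokinesis, 22 of 64 measured genes were called higher and 0 lower, with a median log2 difference of 0.71. Over all 4014 genes measured above the floor at 12 or 24 hours, read from 1 probe set a gene, 3.01% were called higher and 2.77% lower, and the median was -0.04. With the floor in place, 1853 of them read higher at 24 hours and 2137 lower. Among the 49 mitosis genes brighter than 500 at either time the calls are 22 of 49, where 5.23% of the 2312 genes of that brightness were called higher and 4.8% lower. Of 63 measured S phase genes 3 were called higher and 2 lower, with a median of 0.00. Of 10 measured genes of lipid storage and adipocyte products 4 were called higher and 0 lower. Acta2, smooth muscle actin, was called lower, in a list of actin and adhesion genes with 3 of 22 called lower and 1 higher, and 3 of 30 interstitial matrix genes were called lower and 0 higher. In bulk RNA, a change in the number of cells of a kind and a change in RNA per cell cannot be told apart.

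By probe set, 119 of the 6529 of array A were called higher (1.82%) and 115 lower (1.76%). On array B, 73 of 6540 were called higher (1.12%) and 57 lower (0.872%). The other steps from 1 sample to the next gave between 110 and 235 higher calls for array A, and between 56 and 152 for array B.

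The labelled cell type was checked against markers. All 8 fibroblast markers lay above the floor, among them S100a4 at 14900 and 13000, Fn1 at 11000 and 10700 and Vim at 7890 and 7730. Col1a1, at 25200 and 10500, was the 1 of them called lower. Of 6 adipocyte markers on the arrays 4 lay above the floor at either time. Lpl read 6000 and 7880, Lipe 498 and 1840, Fabp4 24 and 269, and Adipoq 217 and 152. Lipe was the 1 of them called higher. Of 5 endothelial markers 2 lay above it, Kdr at 798 and 704 and Icam2 at 380 and 372, while Pecam1, Tek and Cdh5 did not. Of 7 skeletal muscle markers 4 lay above it, led by Ckm at 1830 and 3520 and Myog at 906 and 757, while Des, Acta1 and Tnnt3 did not. Of 5 epithelial markers only Krt8 lay above it, at 471 and 344. Of 9 macrophage markers 6 lay above it, and they are given with the matrix genes below.

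Signal quality was read from background and control probe sets. On array A the 10th percentile of the values was -163 at 12 hours and -109 at 24 hours, the lowest and the highest of the 10 samples. Array B had -153 and -157. For Gapdh, the 3-prime control divided by the 5-prime control gave 1.43 and 1.45 on array A at 12 and 24 hours, and 0.766 and 0.773 on array B, and for beta-actin 1.41 and 1.45 on array A and 0.829 and 1.11 on array B. Control transcripts added to every sample were read from chosen probe sets of BioC, BioDn and CreX. Their log2 differences ran from -0.34 to -0.10 on array A and from -0.34 to 0.12 on array B. The 3-prime beta-actin control differed by -0.50 on array A and by 0.25 on array B. Over all 14 control probe sets above 500 on array A the log2 differences ran from -2.01 to 1.81, with 1 at least 2-fold higher and 1 lower, and over the 18 on array B from -1.25 to 0.75, with 1 lower. The part of these differences in the results was not tested.

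Mitotic cyclins, kinases and their partners moved most. Of 14 measured genes 9 were called higher and 0 lower, and the median log2 difference was 1.29. Ccnb2, a B-type cyclin that activates the kinase of mitotic entry, read 180 at 12 hours and 2260 at 24 hours. That is a 12.6-fold difference, and 24 hours was its highest sample of the 10. Ccna2, the A-type cyclin of S and G2 phase, read 1060 and then 3470, a 3.27-fold difference. Cdk1, the kinase both cyclins bind, read 2120 and 4750, and Cks1b, a small subunit of such kinases, read 872 and 2060. The mitotic kinases followed. Aurkb, of the chromosomal passenger complex, read 155 and 679. Aurka, which matures the spindle poles, read 420 and 1340 on array B and 360 and 730 on array A, so that both of its probe sets were called. Plk1, a kinase of mitotic entry and exit, read 588 and 1260, and Nek2, of the centrosome, 263 and 748. Cdc25c, the phosphatase that removes the brake on Cdk1, lay at 18 at 12 hours, under the floor, and at 653 at 24 hours, at least 4.80-fold higher. Of the 5 genes not called, Cks2 went from 172 to 436 and stayed below the brightness limit. Ccnf, Plk4 and Melk had log2 differences of 0.73, 0.57 and at least 0.37. Lin9, a subunit of the complex that binds promoters of such genes, had -0.51.

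**Figure D1:**
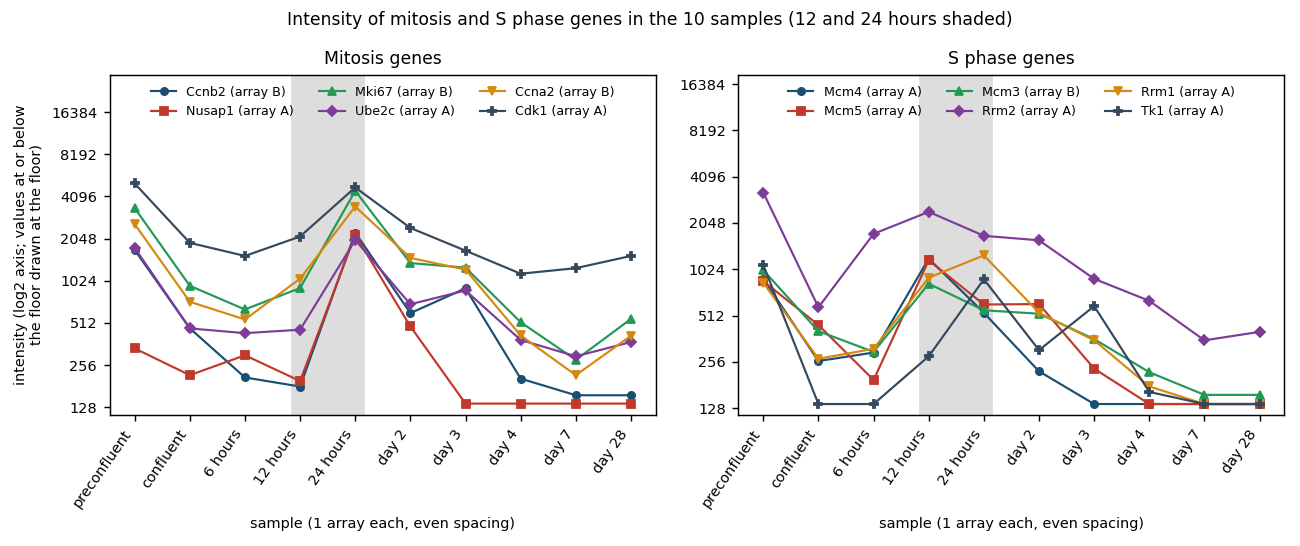
Intensity (log2 axis, values at or below the floor drawn at the floor) of 6 mitosis genes on the left and 6 S phase genes on the right in the 10 samples in order of time, 1 array per point, with 12 and 24 hours shaded. The 6 mitosis genes stand higher at 24 than at 12 hours, Ccnb2 at 2260 against 180, while Mcm4, Mcm5, Mcm3 and Rrm2 stand highest after induction at 12 hours and Rrm1 and Tk1 at 24 hours.

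Promoters of genes active late in the cell cycle are known for CCAAT boxes and for the CHR element, TTTGAA, and those of genes active around S phase for E2F sites, written TTTNGCGC here. These 3 motifs were searched on both strands in the 250 bases before the start of each gene in the RefSeq table of GRCm38.p6, allowing overlaps. The 160 bases before the start of 3 mitosis genes of different roles are shown beside those of Mcm5, a subunit of the replication helicase whose value ran the other way. Capitals mark every match of the 3 motifs on either strand, 5-prime to 3-prime on the gene's strand. Ccnb2 lies at chr9:70421555-70421714 on the minus strand, Cdk1 at chr10:69352913-69353072 on the minus strand, Ube2c at chr2:164769769-164769928 on the plus strand and Mcm5 at chr8:75109349-75109508 on the plus strand.
Ccnb2: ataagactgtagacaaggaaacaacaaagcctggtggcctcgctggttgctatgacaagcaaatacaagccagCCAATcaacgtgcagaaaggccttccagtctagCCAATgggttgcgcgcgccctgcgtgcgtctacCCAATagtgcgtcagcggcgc
Cdk1: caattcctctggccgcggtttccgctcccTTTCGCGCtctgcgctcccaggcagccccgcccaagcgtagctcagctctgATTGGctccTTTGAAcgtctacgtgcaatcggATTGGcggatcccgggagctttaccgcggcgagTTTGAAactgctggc
Ube2c: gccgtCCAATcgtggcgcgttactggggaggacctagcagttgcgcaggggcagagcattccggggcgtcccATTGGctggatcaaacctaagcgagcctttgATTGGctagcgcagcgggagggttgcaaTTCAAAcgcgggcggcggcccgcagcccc
Mcm5: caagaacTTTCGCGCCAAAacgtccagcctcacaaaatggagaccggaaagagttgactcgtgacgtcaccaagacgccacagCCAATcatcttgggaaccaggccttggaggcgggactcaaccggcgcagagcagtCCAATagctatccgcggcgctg

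The Ccnb2 promoter held 3 CCAAT matches, beginning 87, 54 and 21 bases before the start, and 1 TTTGAA match 167 bases before it, outside the stretch shown. Cdk1 held TTTGAA 71 and 15 bases before the start, and Ube2c held it on the other strand 29 bases before it. Mcm5 held CCAAT and overlapping TTTNGCGC matches on both strands, and no TTTGAA in this window. Of the 22 mitosis genes called higher, 16 were in the table. CCAAT was found in 12 of them (75.0%), against 37.5% of all 27025 genes of the table and 40.5% of the measured genes. TTTGAA was found in 8 (50.0%), against 18.3% and 13.3%. CCAAT and TTTGAA were found together in 7 (43.8%), against 7.34% and 5.90%. TTTNGCGC was found in 1, Cdk1, against 1.31% of all genes. Among 60 S phase genes in the table, 36 (60.0%) held CCAAT, 11 (18.3%) TTTGAA and 3 TTTNGCGC. Nusap1, Anln and Pttg1 held none of the 3 in this window. A match is a stretch of letters and was not tested as a binding site.

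Of 9 measured kinetochore and spindle checkpoint genes 4 exceeded 500 and 1 was called higher, Cenpa, the histone H3 variant that marks the centromere, which read -2 at 12 hours and 765 at 24 hours, at least 5.62-fold higher. Cenpe, a kinetochore motor, read 1 and 356, and Sgo1, which protects centromeric cohesion, 48 and 314. Both were 2-fold or more apart with the brighter value under 500. Bub3, of the checkpoint, read 1510 and 1990, a log2 difference of 0.40, and its other probe sets gave 0.57 and at least 0.99. Zw10, which recruits dynein to kinetochores, was lower, 313 and 165, and not called. The list's median was 0.40.

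In the list of the anaphase promoting complex and chromosome structure 3 of 16 measured genes were called higher and 0 lower, with a median of 0.45. Ube2c, the ubiquitin carrier of the complex, read 458 and 2000, a 4.37-fold difference. Pttg1, securin, which the complex destroys at anaphase, read 555 and 1490. Rad21, the cohesin subunit that is cut at that moment, read 697 and 1920. None of the measured core subunits of the complex was called. Anapc1, Anapc4, Anapc5, Cdc16, Cdc23 and Cdc26 had log2 differences of 0.12, 0.25, 0.14, -0.17, -0.59 and 0.45, and the other probe set of Anapc5 had 0.82. Condensin genes read higher without a call, Smc4 at 432 and 737 and Smc2 at 133 and 383. Top2a, the topoisomerase that untangles chromosomes, was called on array A, with 264 and 793, and not on array B, with 817 and 1160.

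Of 13 measured genes of the spindle 5 were called higher and 0 lower, and the median was 0.49. Nusap1, which bundles spindle microtubules, read 197 at 12 hours and 2180 at 24 hours, an 11.1-fold difference. No other sample of the 10 exceeded 484 for it. Kif2c, a kinesin that takes microtubules apart at centromeres, read 201 and 951, and Kif20a, a kinesin of the midzone, 743 and 2050. Stmn1, which destabilises microtubules, read 133 and 669. Ckap5, a microtubule polymerase, read -13 and 591, and its other probe set 88 and 262. The tubulins themselves, which interphase cells also need, did not differ 2-fold: Tuba1a read 13900 and 15000, Tubb4b 5910 and 7180, and Tubb5 10600 and 9860. Mapre1, which tracks microtubule ends in all phases, read 2980 and 3290.

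Of 12 measured genes of cytokinesis and the nuclear envelope, 4 were called higher and 0 lower, with a median of 0.80. Mki67, the coat protein of mitotic chromosomes used as a marker of proliferation, read 909 and 4490, a 4.94-fold difference. Anln, of the contractile ring, read 873 and 3320, and its other probe set 112 and 480, just under the brightness limit. Prc1, the bundler of the central spindle, read 277 and 1080. Banf1, which ties chromatin to the envelope, read 923 and 2160, and 12 hours was its lowest sample of the 10. Lbr, Lmnb1 and Racgap1 were higher by log2 values of 0.95, 0.84 and 0.75 and not called. Lmna, the lamin of resting cells as well, had 0.13.

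All listed members were accounted for. The 5 lists named 127 genes, of which 76 had a probe set of their own on the arrays, 64 lay above the floor at 12 or 24 hours and 49 exceeded 500 at either. Of the 42 measured genes not called, 4 differed 2-fold at lower brightness, all higher at 24 hours: Cks2, Cenpe, Sgo1 and Smc2. The difference was below 0 in 7 of the 64, Lin9, Cenpc1, Zw10, Cdc16, Cdc23, Tubb5 and Septin2. Beyond the lists, and chosen after their values were seen, Kpna2, a nuclear import carrier, was called on both of its probe sets (10300 and 20600, and 462 and 2370). Hmgb2, a chromatin protein, read 541 and 1480, Cdca3, a trigger of mitotic entry, 436 and 1550, and Trip13, an ATPase of the checkpoint, 160 and 581. Rangap1, which also sits at kinetochores, read 1300 and 2780. Not all genes of this kind off the lists were higher. Cenpw read 972 and 495, Cenpx 2740 and 2110 and Haus5 813 and 529, none of them called. Genes off the lists were not counted as a set.

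**Figure D2:**
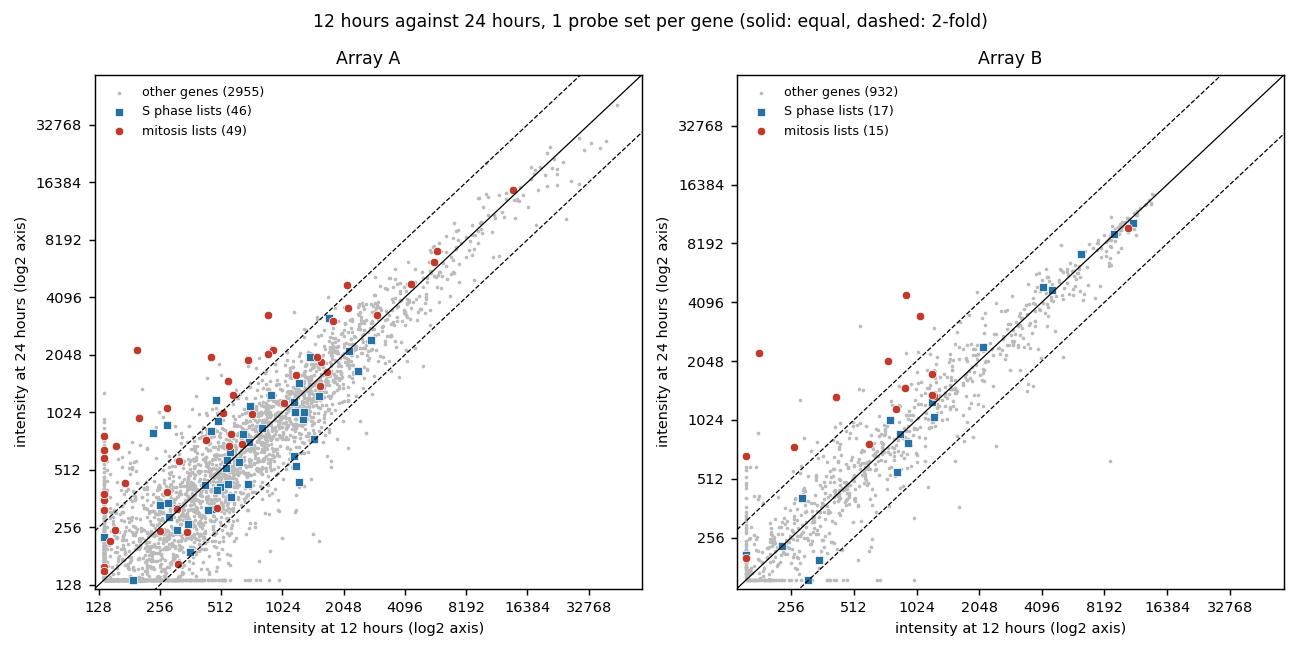
Intensity at 24 hours against intensity at 12 hours for 3050 genes read on array A and 964 read on array B, both on log2 axes, with mitosis genes as circles, S phase genes as squares, the line of equal values solid and 2-fold differences dashed. Mitosis genes lie on or above the upper dashed line or between the lines, and S phase genes lie mostly between the dashed lines.

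Across the 10 samples, 37 of all 64 measured mitosis genes had their highest value at 24 hours and 17 in preconfluent cells. Among the 8 samples after induction 50 of the 64 were highest at 24 hours and 5 at 12 hours. The 64 were kept for a value above the floor at 12 or 24 hours, and their probe sets were chosen there. Both counts therefore lean towards these samples, and the share over all genes was not counted. The call itself further favours a high value at 24 hours, so the same counts over the 22 called genes are a description only. Of these, 17 were highest of the 10 samples at 24 hours and 5 in preconfluent cells. After induction 21 of the 22 were highest at 24 hours, the exception being Banf1, at 2160 against 2210 on day 2 and 2370 on day 4. The neighbouring steps share a sample with this comparison and are given only side by side. From 6 to 12 hours 4 of the 64 were called higher and 1 lower, where 3.16% of all measured genes were called higher and 3.01% lower. From 24 hours to day 2, 0 were called higher and 18 lower, where 2.64% of all were called higher and 3.39% lower. Mki67 fell back from 4490 to 1370 on day 2, Ccnb2 from 2260 to 602 and Nusap1 from 2180 to 484.

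Preconfluent against confluent cells is a comparison that shares no sample with 12 or 24 hours. There 17 of the 64 mitosis genes were called higher in preconfluent cells and 0 lower, where 4.43% of the 4014 genes were called higher and 4.56% lower. Day 2 against 6 hours, which shares no sample either, gave 6 higher and 1 lower, where 5.66% of all were called higher and 6.98% lower. Of the 22 called between 12 and 24 hours, 11 were called higher in preconfluent cells and 21 had a higher value there, with a median log2 difference of 1.27. Nusap1 read 337 in preconfluent and 217 in confluent cells, far under its 2180 at 24 hours. In 17 of the 22 genes the value at 24 hours exceeded that of preconfluent cells. The exceptions were Cdk1, Anln, Plk1, Banf1 and Ckap5, at 5070, 3630, 1440, 3350 and 709 in preconfluent cells.

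S phase genes were called at shares near those of all measured genes, 4.76% higher and 3.17% lower against 3.01% and 2.77%. Of 27 measured DNA replication genes 1 was called higher and 1 lower, and the median log2 difference was 0.03. The subunits of the MCM helicase, which unwinds origins, did not move alike. Mcm4 read 1200 at 12 hours and 533 at 24 hours, a 2.25-fold lower value and the called fall of the list. Mcm5 read 1170 and 604, Mcm3 824 and 554, Mcm2 1290 and 944 and Mcm6 1540 and 1250, all lower and none called, while Mcm7 read 1240 and 1450. Cdc6, which loads the helicase, read 308 and 131, and Cdt1, its partner, 505 and 414. Among genes of the moving fork Pcna, the sliding clamp, read 2130 and 2430, Prim1, a primase subunit, 705 and 720, and Fen1, the flap nuclease, 311 and 324. Rpa3, of the complex that binds single-stranded DNA, read 495 and 926, a log2 difference of 0.90. The polymerase subunits Pola2 and Pold1 had at least 0.75 and 0.50, and Prim2, the other primase subunit, -0.39, none of them called. Lig1, the ligase that joins Okazaki fragments, was called higher, at 483 and 1190.

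Of 17 measured DNA precursor genes 1 was called higher and 1 lower, with a median of 0.00. Over all measured genes 3.01% were called higher and 2.77% lower. Tk1, thymidine kinase, read 278 and 881. Tyms, thymidylate synthase, read 706 and 1100, and Dtymk, which makes the diphosphate, 458 and 817, neither called. Cad, which starts pyrimidine synthesis, was called lower, at 1240 and 441. Rrm2, the small subunit of ribonucleotide reductase, read 2420 and 1690 on its brightest probe set, and 3 others were lower too, of which the set on array B was called (1200 and 572). Rrm1, the large subunit, read 903 and 1260. Of 12 histone and chromatin assembly genes 1 was called higher, H2az2, a variant H2A, at 236 and 796. H2az1, its near copy, read 1730 and 3190 and was not called. Of 7 DNA repair and methylation genes 0 were called. Hells read 348 and 196, Ezh2 572 and 369, and Dnmt1, which copies methylation at the fork, 765 and 1020.

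S phase genes had been called more often a step earlier. From 6 to 12 hours, which shares the sample of 12 hours, 14 of the 63 were called higher and 0 lower. Of all measured genes 3.16% were called higher there and 3.01% lower. From 24 hours to day 2, 1 was called higher and 8 lower, where 2.64% and 3.39% of all were. Within the samples after induction 23 of the 63 were highest at 12 hours and 18 at 24 hours, against 5 and 50 of the 64 mitosis genes. Both sets were kept for a value above the floor at 12 or 24 hours, so these peak counts are a description only. Between preconfluent and confluent cells, which shares no sample, 17 of the 63 were called higher in preconfluent cells and 0 lower. Of all measured genes 4.43% and 4.56% were.

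For the passage from G1 into S phase most values were lower, where 2137 of all 4014 measured genes were lower and 2.77% were called so. Of 11 measured genes 9 had a value lower at 24 hours, and the median log2 difference was -0.68, but 1 was called, Ccne1, cyclin E, at 1920 and 842. Its value on day 2 was 2380. E2f1, the transcription factor of that passage, read 2060 and 1170. Ccnd1 read 4080 and 2120 and Ccnd2 4150 and 2160, both cyclins that answer growth factors, each 1.92-fold lower and so just short of the limit. Myc read 584 and 325, and Cdk2, the partner of cyclin E, 632 and 394. Among 15 growth arrest genes 1 was called higher, Cdkn1b, the inhibitor p27, at 460 and 1060. It had stood at 1190 in confluent cells and read 321 on day 2. Cdkn2c, the inhibitor p18, read 1050 and 1800, and Cdkn1a, p21, 1430 and 1040 on array B against 713 and 752 on array A.

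**Figure D3:**
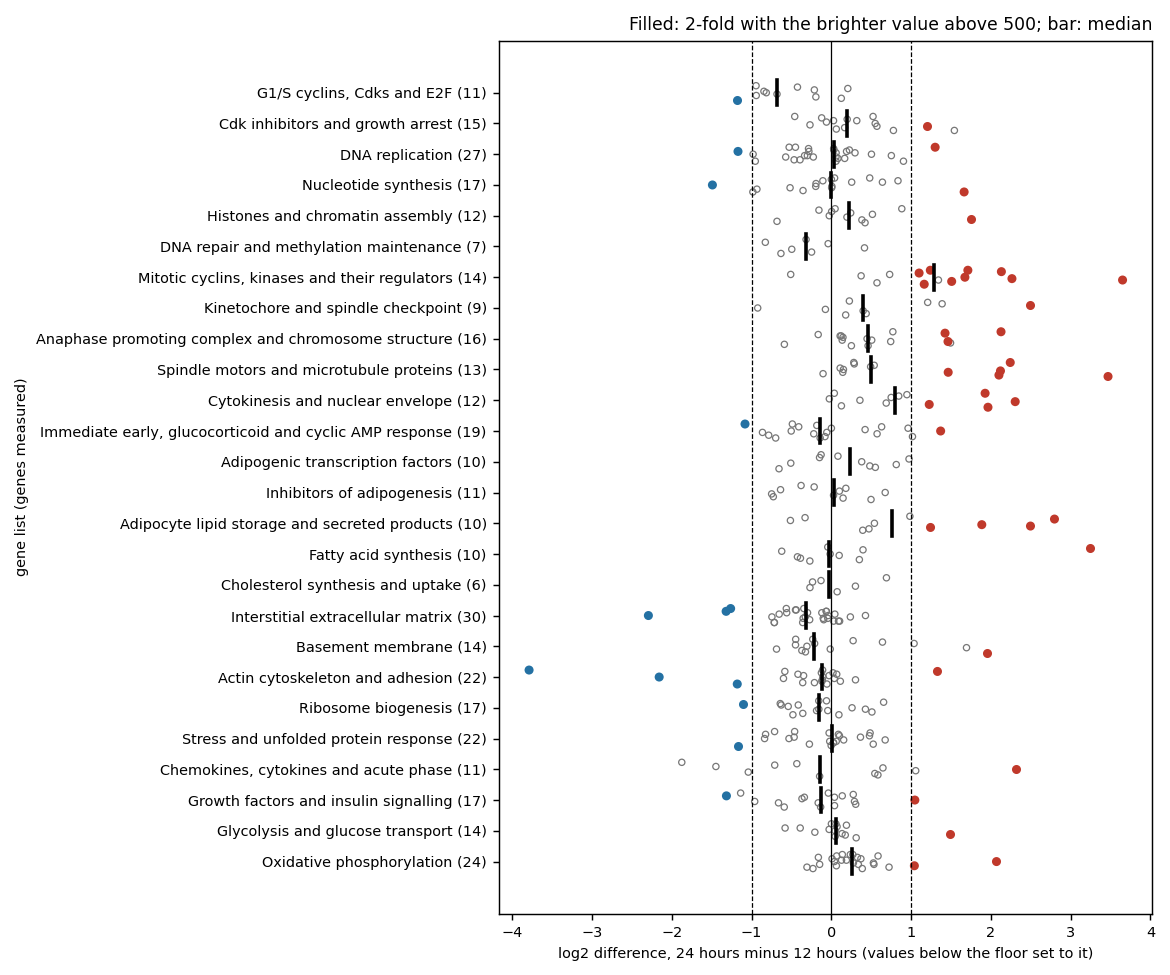
Log2 difference, 24 hours minus 12 hours, of every measured gene (circles) in 26 gene lists, with the number of genes beside each name, filled where the gene was called (red higher, blue lower), and a bar at each list's median. The list of mitotic cyclins and kinases has the highest median, 1.29, and that of G1 and S cyclins the lowest, -0.68.

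Fat cell genes were higher at 24 hours in part. Of 10 measured genes of lipid storage and secreted adipocyte products, 4 were called higher and 0 lower, with a median log2 difference of 0.76. Of all measured genes 3.01% were called higher and 2.77% lower. Plin2, the coat of small lipid droplets, read 103 at 12 hours and 945 at 24 hours, at least 6.95-fold higher. It had read 1160 and 1200 before induction. Fabp5, a fatty acid carrier, read 546 and 3080, a 5.64-fold difference, but it too had been higher before, at 3890, 2500 and 2000 in preconfluent, confluent and 6-hour cells. Lipe, hormone-sensitive lipase, read 498 and 1840, on the way to 12600 on day 2. Angptl4, a secreted inhibitor of lipoprotein lipase, read 431 and 1020. Fabp4, the carrier typical of adipocytes, went from 24 to 269, and Pparg from 17 to 267. Neither was called: the brighter value lay under 500, and with the floor in place the log2 differences were at least 0.98 and 0.97, just under 2-fold. Adipoq and Retn, hormones of fat cells, had log2 differences of -0.51 and -0.33. Outside that list, Hp, haptoglobin, read 177 and 881, and Hsd11b1, which regenerates glucocorticoid, 565 and 1460. Wfdc21 read 122 and 847.

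Of 10 genes of fatty acid synthesis 1 was called higher, Tkt, transketolase of the pentose phosphate pathway, at 76 and 1290, at least 9.49-fold. The synthesis enzymes were not yet higher: Fasn read 3230 and 3130, Acly 3250 and 2420, and Scd1 7590 and 4930. Of 24 oxidative phosphorylation genes 20 were higher and 2 were called, the complex III subunits Uqcrc1 (-729 and 571) and Uqcrfs1 (371 and 763), with a list median of 0.25. Of all 4014 measured genes 1853 were higher, and 3.01% were called higher. Ldhb, a lactate dehydrogenase subunit, was called on both probe sets (295 and 830, 290 and 728). On the first of these sets it had been higher at 6 hours, with a log2 difference of -1.70 from 6 to 12 hours. Cebpb, the early adipogenic factor, read 9240 and 8450, and Cebpd 1030 and 1810.

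Smooth muscle actin fell furthest of all genes measured at both times. Acta2 read 8700 at 12 hours and 629 at 24 hours, a 13.8-fold lower value, after 8440, 11600 and 10600 in the 3 earlier samples. Later values went up and down, with -98 on day 2, 2850 on day 3 and 5850 on day 28. Actg2, the enteric smooth muscle actin, read 1620 and 715, whereas the general actins Actb (14500 and 13400) and Actg1 (10500 and 11000) did not differ 2-fold. In the list of actin cytoskeleton and adhesion 3 of 22 genes were called lower and 1 higher. Of all measured genes 2.77% were called lower and 3.01% higher. The list's median was -0.12. The third fall was Itga5, the fibronectin receptor subunit, at 1630 and 365. The rise was Cdh2, N-cadherin, at 397 and 998. Myh9, non-muscle myosin, read 5870 and 4610 on its brightest probe set, and its other sets gave log2 differences of -0.71 and -1.32, the last of which was called. Flnc, a filamin, and Itgav, another integrin subunit, were chosen after their values were seen and read 3490 and 1440, and 1370 and 632.

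Of 30 measured interstitial matrix genes 3 were called lower and 0 higher, 24 had a lower value, and the median was -0.31. Of all 4014 measured genes 2.77% were called lower, and 2137 had a lower value. Thbs2, a matrix glycoprotein, read 667 and 79, at least 4.90-fold lower. Tnc, tenascin C, read 629 and 252. Col1a1, the main chain of type I collagen, read 25200 and 10500 on its brightest probe set, and 3730 and 2220 and, on array B, 8920 and 7880 on others, which were not called. Col1a2 was lower by log2 values of -0.35, -0.55 and -0.83 on its 3 probe sets, and Serpinh1, the collagen chaperone, by -0.44 and -0.97. Fn1 and Col6a1 had -0.04 and -0.06. In the basement membrane list 1 of 14 genes was called, Lama4, a laminin chain, which was higher at 186 and 720. It too had been higher at 6 hours, with a log2 difference of -1.86 from 6 to 12 hours. Between 12 and 24 hours Col4a1 and Col4a2 had -0.45 and -0.69. Macrophage markers were also lower when summed. Their summed level was 5691 at 12 hours and 3799 at 24 hours over 9 genes, within 3481 to 6963 over the 10 samples. Above the floor lay 6 of the 9, among them Cd14 (1590 and 1410), Ptprc (1390 and 1000) and C1qb (703 and 567), not called. Lyz2 (1200 and 378) was called lower, and Adgre1, Csf1r and C1qa lay at or below the floor at both times. The part of macrophage markers in the result was not tested.

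**Figure D4:**
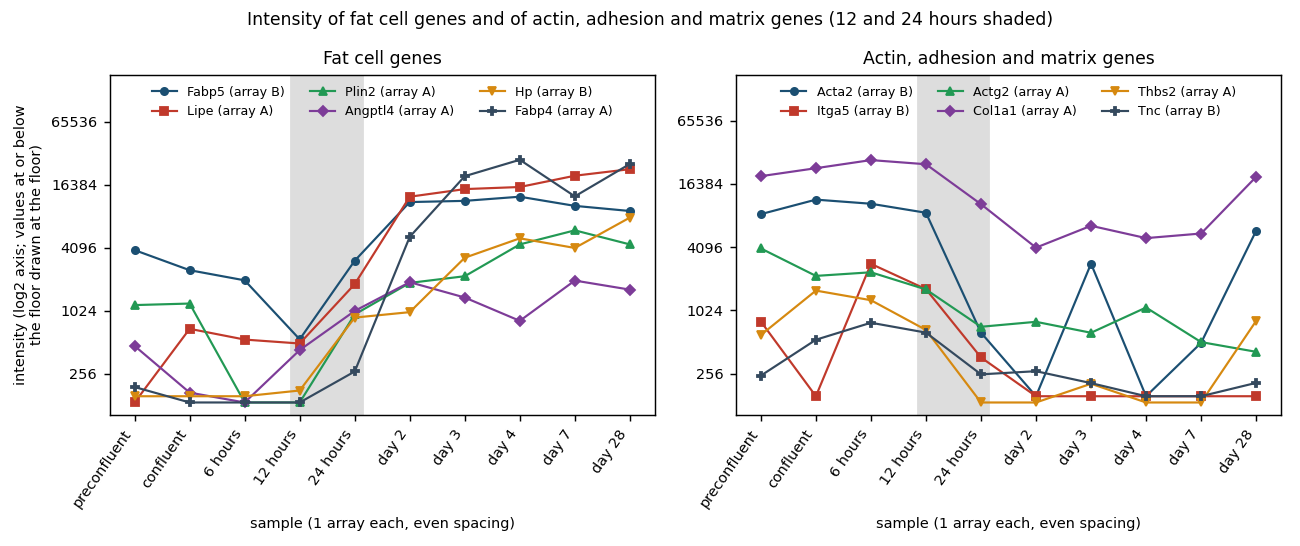
Intensity (log2 axis, values at or below the floor drawn at the floor) of 6 fat cell genes on the left and 6 actin, adhesion and matrix genes on the right in the 10 samples in order of time, 1 array per point, with 12 and 24 hours shaded. Lipe goes from 498 to 1840 across the shaded interval and Acta2 from 8700 to 629, and Fabp4 stays near the floor at 269.

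Hormone response genes had calls in both directions, 5.26% each way, where 3.01% of all measured genes were called higher and 2.77% lower. Of 19 measured immediate early, glucocorticoid and cyclic AMP genes 1 was called higher, Hsd11b1, and 1 lower, Fosl1. Fosl1, a subunit of AP-1, was called lower on both arrays, at 1650 and 779 and at 1420 and 531. Dusp1, a phosphatase of growth signalling, read 1830 at both times, and Fkbp5, a glucocorticoid target, 5700 and 7640. Ribosome biogenesis genes had 12 of 17 lower values and 1 call, Nolc1, a nucleolar chaperone, at 1140 and 528. Of all 4014 measured genes 2137 had lower values. In the list of stress and the unfolded protein response Xbp1 was called lower at 1030 and 456, and 11 of 22 genes lay on each side of 0. Among growth factors Fgf7 was called lower, at 1160 and 466, and the receptor Pdgfra higher, at 489 and 1010. Hmga2, a chromatin protein of growing cells, read 2470 and 749, and Socs2, a brake on cytokine signals, 1260 and 630, both picked after their values were seen.

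Among genes above the floor at both times, the 12 with the largest higher value at 24 hours held 6 of the mitosis lists: Ccnb2, Nusap1, Mki67, Kif2c, Ube2c and Aurkb. The others were Fabp5, Hp, Ptpn1, Nfix, Sardh and Mbd6. Sardh, a mitochondrial enzyme, read 253 at 12 hours, 1030 at 24 hours and between 928 and 1460 in the other 8 samples. Mbd6 read 140 at 12 hours, the lowest of its 10 values, and 569 at 24 hours. Among the largest falls, Acta2, Pdpn (1540 and 217), podoplanin, a membrane glycoprotein, Crip1 (1450 and 237), Fxyd5 (784 and 171) and Itga5 were also low on day 2, and Crip1 was called on array B as well. Chtop (1190 and 314), Lrrfip2 (1780 and 532) and Fgf15 (1180 and 307) read lower at 24 hours than at both neighbouring times, with 618, 1310 and 1420 on day 2, and so did Gfra3 (563 and 162), with 288 on day 2. Prrg2 (890 and 193) and Slc7a6 (1020 and 224) also read higher again on day 2, at 744 and 478. Pou5f1 (553 and 167) completed the 12 and read -455 on day 2. Of the calls bounded by the floor, the brightest higher ones were Tkt, Plin2, Cd82, Wfdc21, Cenpa and Fkbp8, and the brightest lower ones Krt15, Zfpm1, Pacs1, Pla2g2c, Gnb5 and Il9r. Zfpm1, a cofactor of GATA factors, was called on both of its probe sets (980 and -113, 713 and -151).

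Many calls had their extreme value in 1 of the samples compared. On array A, 12 hours was the lowest of the 10 samples in 33 of the 119 probe sets called higher, and 24 hours the lowest in 40 of the 115 called lower. On array B these counts were 21 of 73 and 9 of 57. At 24 hours 42 and 31 of the higher calls had their highest value. The call itself favours such extremes, and the share over probe sets not called was not counted, so these counts are a description only. Genes with several probe sets gave a second reading of the same RNA. Each pair of probe sets was counted once. For 35 genes with a call and another probe set above 500, 7 of 46 pairs were called the same way, 34 had the same sign with 1 call, 5 had the opposite sign and 0 were called the opposite way. With every other probe set above the floor, 7 of 74 pairs over 54 genes were called the same way, 52 had the same sign with 1 call and 15 the opposite sign. Between probe sets of the same gene above 500, the log2 difference had a standard deviation of 0.39 over 304 genes, which is a spread between probes and not between cultures. Just inside the 2-fold limit lay Kpna2, at 10300 and 20600, and Socs2, at 1260 and 630, and just outside it Bnip1, at 611 and 1220. Just inside the brightness limit lay Otulinl, at 502 and 214, and just outside it Cox8c, at 500 and 175, Cxcl1, at 499 and 57, and Cdkn3, a phosphatase of Cdk1 and its relatives, at 83 and 498.

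Samples that share nothing with 12 or 24 hours placed these calls along the series. Day 2 was set against 6 hours for the 121 genes called higher: 33 (27.3%) were called higher there too and 8 (6.61%) lower, where 7.87% and 9.34% of the 2312 genes above 500 at 12 or 24 hours were. Of the 111 genes called lower, 40 (36.0%) were called lower on day 2 against 6 hours and 1 (0.901%) higher. Preconfluent against confluent cells gave no such order for the calls as a whole: of the 121, 25 were called higher in preconfluent cells and 17 lower, and of the 111, 12 higher and 7 lower, where 6.23% and 5.8% of the 2312 genes were.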

How the data were processed

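Deposited values were linear intensities per probe set from Affymetrix arrays of 2 types, made by the authors from biotin-labelled cRNA after the maker's manual, per the labels' protocols. Software and genome build: not given in the sources used here. The authors' scaling, with means of 501 after trimming 2% at each end, was kept. Control probe sets were left out, values below the 10th percentile with its sign turned (136 and 156) were set to it, and log2 differences were taken with Python 3.11.15 and pandas 2.3.3. Names came from the platform annotation: 7553 of 13069 probe sets had 1 symbol, 224 several and 5292 none. A gene was read from its probe set with the highest mean at 12 and 24 hours. Among genes in the text, Anln, Plk1, Stmn1, Top2a, Mcm6, Rrm2, Fabp5, Ldhb, Col1a1, Actg2, Crip1, Nolc1, Slc7a6, Gfra3, Zfpm1, Cdca3 and the tubulins were read from sets marked as shared by related sequences or built under relaxed rules. Named were the 12 largest calls a side above the floor at both times, the 6 brightest a side bounded by the floor, and members of the lists. Members, lists and rules were chosen with earlier results of these data known. The calling rule was tested on simulated data. These held planted changes larger than the limit in bright probe sets and no variation between cultures, so the test does not cover such variation. The number of arrays limits the precision.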

Additional observations from a re-analysis of the deposited data

How the results depend on the processing

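Counts of called probe sets kept within 1.5 times of their value with quantile normalization, with shared and relaxed probe sets left out, with the mean of 6 and 12 hours as baseline, and, chosen after seeing the data, with the mean of 24 hours and day 2 against 12 hours. A floor 1.5 times higher cannot end a call, since the brighter value must exceed 500. With the brighter value above 1000 the counts were 48 higher and 44 lower on array A and 30 and 28 on array B. Of 56 calls among the mitosis genes, the S phase genes and those named as the largest or brightest calls, 31 remained at that limit, 50 with the baseline of 6 and 12 hours and 39 with day 2 averaged in. For the 22 mitosis genes these numbers were 15, 20 and 10. The baseline of 6 and 12 hours ended the calls of Plk1, Banf1, Mcm4, Mbd6, Pou5f1 and Sardh. Averaging day 2 in ended those of Anln, Aurkb, Cdc25c, Cdk1, Ckap5, Cks1b, Kif20a, Plk1, Prc1, Pttg1, Rad21 and Stmn1, of the S phase genes Lig1, Tk1 and H2az2, and of Fgf15 and Mbd6. Of the 156 measured genes of these 3 sets, 49 moved by more than the probe-set spread of 0.39 with the baseline of 6 and 12 hours, 66 with day 2 averaged in and 27 with the higher floor. That baseline turned the DNA repair and methylation median from -0.32 to 0.21. The spindle list's median was 0.98 with shared and relaxed probe sets left out, and with day 2 averaged in the medians of cytokinesis and of lipid storage genes were 0.36 and 1.65. No called gene of these sets reversed under the alternatives run. No paired analysis was possible because each time point had 1 sample per array type and no replicate numbers.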
